A study of Mus musculus with 9 samples.

Results

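The 8 genes described here encode glucose transporters of the proximal tubule and a protein partner of one of them. They were chosen by name from the 24421 genes of the deposited table, by a rule that uses no measured value, although earlier results of these data were known. *Slc5a2*, *Slc5a1*, *Slc5a10* and *Slc5a9* encode the sodium-coupled transporters SGLT2, SGLT1, SGLT5 and SGLT4. *Slc2a1*, *Slc2a2* and *Slc2a4* encode the facilitative transporters GLUT1, GLUT2 and GLUT4, and *Pdzk1ip1* encodes MAP17, a small membrane protein that SGLT2 needs for full activity. All 8 genes were among the 15583 genes tested, and their lowest count in any mouse was 30, for *Slc2a4*.

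Filtered glucose is taken back from the urine by the proximal tubule. SGLT2 in the early segments and SGLT1 in the late segment carry it with sodium across the brush border, and GLUT2 and GLUT1 let it leave on the basolateral side towards the blood. Dapagliflozin blocks SGLT2, so that more glucose passes on to SGLT1 and into the urine.

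Poly(A) RNA of sorted tdTomato-positive tubular cells was sequenced in 9 libraries, each from 1 mouse, with 3 *db/m* mice, 3 *db/db* mice and 3 mice of the *db/db*-dapa group. *db/db* mice carry the mutation of the leptin receptor (Lepr db) on both alleles and become obese and diabetic, *db/m* mice carry it on 1 allele and are not diabetic, and *db/db*-dapa mice are *db/db* mice given dapagliflozin in the drinking water at 1.5 mg/kg/day for 8 weeks. The mice of the *db/db* group were given vehicle in the drinking water for the same 8 weeks. Mice of all groups were on the C57BL/6 strain and carried a tamoxifen-dependent Cre (CreERT2) inserted in the *Slc34a1* locus and a tdTomato reporter in the Rosa26 locus. All were given tamoxifen 5 times at 3 mg per mouse from 8 weeks of age. The cells came from digested kidney cortex, so the reporter marks cells that used *Slc34a1*, a sodium-phosphate transporter gene of the proximal tubule, when tamoxifen was given. Sex and the age at the end of the study were not given in the sources used here. The labels name the tissue only as kidney.

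The counts summed to between 2733314 and 9033062 per mouse. The smallest library was *db/db* replicate 1, in which 1 count was worth 0.340 CPM, a gene's count divided by the TMM-scaled size of its library. Markers of the whole proximal tubule (*Slc34a1*, *Lrp2*, *Cubn* and *Aqp1*) were high in every mouse, with a sum between 6675 and 12274 CPM. The 9 markers of the S1 and S2 segments summed to 5142 to 6438 CPM in *db/m*, 6710 to 9783 in *db/db* and 8643 to 11329 in *db/db*-dapa mice, and 0 of them were called in any comparison, where a call is an adjusted p below 0.1 together with an absolute log2 fold change above 1. The 8 markers of the late S3 segment summed to 1336 to 1587 CPM in *db/m*, 125 to 856 in *db/db* and 589 to 924 in *db/db*-dapa mice. Of these, *Slc22a7* and *Acsm3* were called lower in *db/db* than in *db/m* mice, and *Slc22a7* was also called lower in the dapagliflozin group than in *db/m* mice. Markers of other cells were present too, and no marker gene of another cell type, of tubular injury or of the immediate-early response was called in any comparison. The 3 markers of the thick ascending limb summed to 339 to 1626 CPM, with the highest sum in *db/m* replicate 3, the 5 erythroid markers reached 1462 CPM in *db/db* replicate 2, and the 3 podocyte markers reached 214 CPM in *db/db*-dapa replicate 1. Libraries differed further in the balance of long and short transcripts. The median deviation from the mean of all mice, for transcripts of at least 4652 bases minus that for transcripts of at most 2031 bases, was -0.32, -0.06 and -0.59 on the log2 scale in *db/m* replicates 1 to 3. It was -0.14, -0.22 and 0.57 in *db/db* and -0.01, 0.32 and 0.41 in *db/db*-dapa mice. *db/db* replicate 3 thus stood apart from the other *db/db* mice. In bulk libraries such as these, fewer cells of a segment and less RNA per cell cannot be told apart.

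The promoters of 3 of the genes are shown, since *Slc5a1* and *Slc5a10* had a like pattern over the mice and *Pdzk1ip1* had an opposite one. Each window runs from 250 bases before to 50 bases after the start of the gene's transcript, is read on the gene's strand and is credited to RefSeq on GRCm38.p6. The windows were searched on both strands for GTTAAT, an HNF1 half-site, and for CACGTG, an E-box that reads the same on both strands. Capitals mark the matches.
*Slc5a10* (chr11:61720750-61721049, minus strand): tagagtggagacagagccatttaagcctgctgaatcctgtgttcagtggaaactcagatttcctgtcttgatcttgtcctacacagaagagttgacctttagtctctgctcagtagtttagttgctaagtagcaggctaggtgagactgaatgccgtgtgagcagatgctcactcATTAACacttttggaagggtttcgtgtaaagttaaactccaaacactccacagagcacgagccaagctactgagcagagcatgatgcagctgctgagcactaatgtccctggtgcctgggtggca
*Slc5a1* (chr5:33103969-33104268, plus strand): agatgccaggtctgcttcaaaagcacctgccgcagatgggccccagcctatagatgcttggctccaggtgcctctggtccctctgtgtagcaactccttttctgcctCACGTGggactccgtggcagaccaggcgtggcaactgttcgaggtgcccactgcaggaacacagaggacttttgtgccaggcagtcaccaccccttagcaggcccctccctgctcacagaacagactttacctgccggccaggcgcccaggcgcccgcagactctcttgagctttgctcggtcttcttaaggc
*Pdzk1ip1* (chr4:115088458-115088757, plus strand): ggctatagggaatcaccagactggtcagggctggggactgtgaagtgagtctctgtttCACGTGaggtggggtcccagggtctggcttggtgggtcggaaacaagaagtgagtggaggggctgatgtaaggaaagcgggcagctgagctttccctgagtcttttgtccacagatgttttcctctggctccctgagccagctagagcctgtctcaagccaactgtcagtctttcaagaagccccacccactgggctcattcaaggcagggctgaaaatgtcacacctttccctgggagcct
The match in *Slc5a10* begins at position -75 from the start, and those in *Slc5a1* and *Pdzk1ip1* begin at -143 and -192. GTTAAT was held by 7.10% and CACGTG by 7.15% of 32851 promoter windows of this length, and a match is a description of the letters, not of a bound factor. The windows of *Slc2a1* and *Slc2a2* and a further window of *Slc5a10* held neither motif, so the 3 windows shown are also those with a match. No window was available for *Slc5a2*, *Slc5a9* and *Slc2a4*. *Slc5a1* and *Pdzk1ip1*, with opposite patterns over the mice, both held CACGTG.

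The levels of the 8 genes spanned more than 2 orders of magnitude when scaled to length. As CPM per kilobase of the longest transcript, averaged over the 9 mice, *Pdzk1ip1* was at 737 ± 197 (SD, n = 9) and *Slc5a2* at 493 ± 188. *Slc5a10* followed at 166 ± 87.0, *Slc2a2* at 51.8 ± 15.2 and *Slc5a1* at 24.4 ± 11.3 on the same scale. The lowest were *Slc2a1* at 11.2 ± 1.81, *Slc5a9* at 8.42 ± 3.29 and *Slc2a4* at 2.82 ± 1.56 CPM per kilobase. The ranges over mice of neighbours in this order overlapped except for *Slc5a2*, whose lowest mouse was at 326, and *Slc5a10*, whose highest was at 310 CPM per kilobase. *Slc2a2* was above *Slc5a1* in 9 of 9 mice, whereas *Slc2a1* was above *Slc5a9* in only 5 of 9. The order was the same with the length of all exons in place of the longest transcript. Across mice *Slc2a1* varied least, by 1.55 times between the lowest and the highest mouse, and *Slc5a1* varied most, by 5.90 times.

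**Figure D1:**
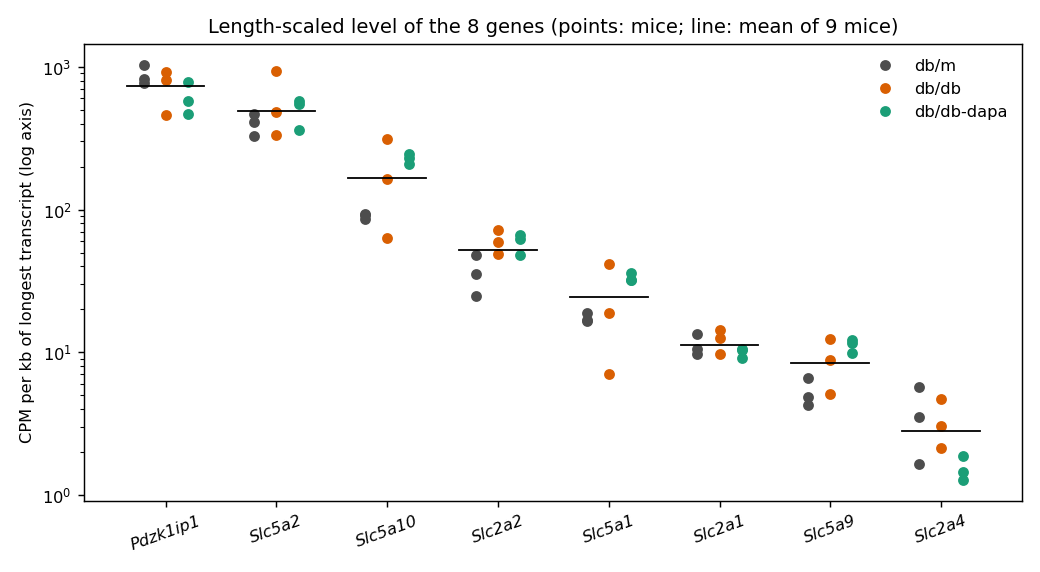
Level of each gene in CPM per kilobase of its longest transcript (log axis), with 1 point per mouse coloured by group and a line at the mean of the 9 mice. The means run from 737 for *Pdzk1ip1* to 2.82 for *Slc2a4*, and the ranges of neighbouring genes overlap except those of *Slc5a2* and *Slc5a10*.

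To ask whether diabetes or its treatment with dapagliflozin went with a change of these genes, 3 comparisons were made. The diabetes comparison sets *db/db* against *db/m* mice, the treatment comparison sets *db/db*-dapa against *db/db* mice, called treated and untreated (vehicle only) below, and the combined comparison sets treated against *db/m* mice. The test was edgeR's quasi-likelihood test, with p-values adjusted by the Benjamini-Hochberg method over all tested genes. Of the 8 genes 0 were called in any comparison, and the comparisons share mice with each other. Of all tested genes, 1.24% were called in the diabetes comparison, 0% in the treatment comparison and 1.05% in the combined comparison. With DESeq2, 0, 0 and 3 of the 8 genes were called in the same order, against 363, 13 and 507 of all 15583 tested genes. At an unadjusted p under 0.05 were 3 of the 8 genes in the diabetes comparison (*Slc5a10*, *Slc5a9* and *Slc2a2*, with higher levels in *db/db*), against 13.7% of all genes. The treatment comparison gave 1 of 8 (*Slc2a4*, with lower levels), against 5.19%. In the combined comparison it was 4 of 8 (*Slc5a10*, *Slc5a9* and *Slc2a2* higher, *Slc2a4* lower), against 18.2%. The 2 groups did not overlap for 1, 1 and 3 of the 8 genes in the same order of comparisons, against 16.4%, 10.2% and 28.1% of all genes. The median log2 fold change of the 8 genes was 0.46, -0.13 and 0.51, against 0.02, -0.01 and -0.02 over all tested genes.

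**Figure D2:**
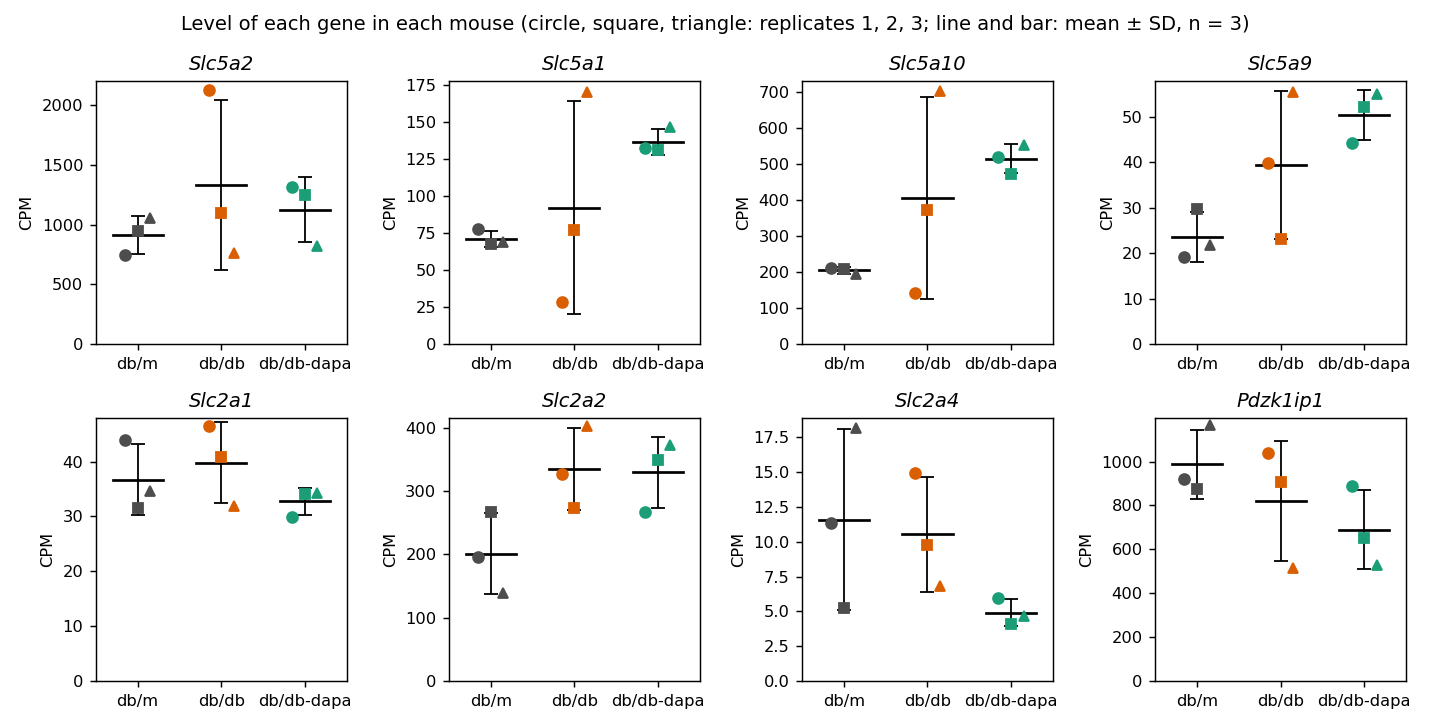
Level in CPM (axes from 0) of the 8 genes in each of the 9 mice, with the mean ± SD of each group. *Slc5a10* and *Slc5a1* lie close together within *db/m* and within treated mice and spread widely within *db/db* mice, where *Slc5a10* ranged from 142 to 701 CPM.

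*Slc5a2* encodes SGLT2, the target of dapagliflozin and the main glucose transporter of the early segments. The gene has 14 exons in its longest transcript and lies at chr7:128265657-128272430 (GRCm38, plus strand). Its level was 741, 942 and 1057 CPM in *db/m*, 2124, 1098 and 760 CPM in *db/db* and 1310, 1250 and 817 CPM in treated mice. *db/db* replicate 1 was the highest of the 9 mice, and the 3 groups overlapped. *Slc5a2* had a log2 fold change of 0.54 (standard error 0.34) in the diabetes comparison, with a 95% interval of -0.20 to 1.28 and an adjusted p of 0.519 from edgeR's quasi-likelihood test. Treated against untreated mice gave -0.24 (95% interval -0.97 to 0.50), and without *db/db* replicate 1 it turned to 0.28. Without the same mouse, the value in the diabetes comparison was 0.024. Against *db/m* mice, the dapagliflozin group gave a log2 fold change of 0.30 (95% interval -0.44 to 1.04). The exons of *Slc5a2* share 597 bases with those of *BC017158* on the opposite strand. *BC017158* was at 288, 298 and 463 CPM in *db/m*, 765, 409 and 182 in *db/db* and 383, 294 and 184 in treated mice. Within each group this is the order of *Slc5a2*. Whether strand was used in counting is not given in the sources used here, so that reads of the 2 genes may not have been told apart.

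*Pdzk1ip1* encodes MAP17, the partner of SGLT2, and lies at chr4:115088708-115093899 (plus strand). It was at 920, 874 and 1167 CPM in *db/m*, 1039, 908 and 516 in *db/db* and 886, 653 and 529 in treated mice. Replicate 3 of each diabetic group was below the other 7 mice, and the groups overlapped. The log2 fold change was -0.27 (standard error 0.27) in the diabetes comparison, -0.25 (standard error 0.27) in the treatment comparison and -0.52 (standard error 0.27) in the combined comparison. Its longest transcript, of 1129 bases, is the shortest among the 8 genes, and its level was lowest in the 2 mice in which long transcripts stood highest. With the trend on transcript length removed from each library, the log2 fold changes were -0.10, -0.09 and -0.20 in the same order.

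*Slc5a1* encodes SGLT1, which takes up the glucose that SGLT2 leaves, and lies at chr5:33104219-33162870 (plus strand). Its level was 77.6, 67.5 and 69.3 CPM in *db/m*, 28.9, 77.4 and 171 CPM in *db/db* and 133, 131 and 147 CPM in treated mice. The *db/m* mice and the treated mice each lay within 1.15 times of each other and did not overlap. The *db/db* mice spanned 5.90 times and held both the lowest and the highest of the 9 mice. *Slc5a1* had a log2 fold change of 0.94 (standard error 0.44) in the combined comparison, with a 95% interval of -0.02 to 1.90 and an adjusted p of 0.283 from edgeR's quasi-likelihood test. In the diabetes comparison it was 0.38 (95% interval -0.58 to 1.34), and without *db/db* replicate 3 it turned to -0.41. The value in the treatment comparison was 0.55 (95% interval -0.40 to 1.51, adjusted p = 0.854). Without *db/db* replicate 3 that value was 1.36 with an adjusted p of 0.0835, and with quality weights for each mouse (voom and limma) it was 1.19 with an adjusted p of 0.0919. Over its 20 alternatives the adjusted p ran from 0.0835 to 1. Leaving out *db/db* replicate 3 and the quality weights called 272 and 449 of all tested genes in this comparison, against 0 in the main test. Within *db/db* mice, the summed markers of S3 (125, 205 and 856 CPM in replicates 1 to 3) and of S1 and S2 (6710, 7166 and 9783 CPM) both had the order of *Slc5a1*. Of the single S1 and S2 markers, *Slc4a4*, *Slc22a6* and *Slc13a3* had this order. *Gatm* and *Slc5a12* had the reverse order, and *Slc6a19*, *Slc7a7*, *Slc7a8* and *Slc22a8* had neither. Of the single S3 markers, *Atp11a* (99.9, 150 and 636 CPM), *Acsm3*, *Slc22a13* and *Slc7a12* had the order of *Slc5a1*. *Cyp7b1* had the reverse order, and *Slc7a13*, *Slc22a7* and *Bcat1* had neither. Across groups the S3 sums did not follow *Slc5a1*, since they were highest in *db/m* mice. The S1 and S2 sums were lowest in *db/m* mice, as the group mean of *Slc5a1* was. The part of these markers in the result was not tested.

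*Slc5a10* encodes SGLT5, a transporter of mannose and fructose found mainly in the kidney, and lies at chr11:61672781-61720826 (minus strand). It was at 211, 208 and 195 CPM in *db/m*, 142, 372 and 701 CPM in *db/db* and 518, 472 and 553 CPM in treated mice. All treated mice were above all *db/m* mice, and the *db/db* mice lay on both sides, with replicate 1 lowest and replicate 3 highest of the 9 mice. *Slc5a10* had a log2 fold change of 1.33 (standard error 0.41, 95% interval 0.43 to 2.23) in the combined comparison, with an unadjusted p of 0.00767 and an adjusted p of 0.172 from edgeR's quasi-likelihood test. The gene was called in this comparison with DESeq2 (adjusted p = 0.0393), with voom and quality weights (0.0122), in a fit of only these 6 mice (0.00217), without *db/db* replicate 1 (0.0256) and without *db/db* replicate 3 (0.0280). In the same order, these settings called 507, 1619, 630, 237 and 664 of all tested genes, against 164 in the main test. The *db/db* mice are not in this comparison and enter only through the shared fit. Without any 1 of the 6 mice compared, *Slc5a10* was not called. The adjusted p of *Slc5a10* ran from 0.00217 to 0.478 over its 20 alternatives, while the log2 fold change stayed between 1.25 and 1.44. In the diabetes comparison the log2 fold change was 0.99 (95% interval 0.09 to 1.89, adjusted p = 0.316). It was called without *db/db* replicate 1, at 1.39 with an adjusted p of 0.0393, and was 0.33 without *db/db* replicate 3. The adjusted p ran from 0.0393 to 0.72 over the alternatives. Between treated and untreated mice it was 0.34 (95% interval -0.55 to 1.23), and without *db/db* replicate 1 it turned to -0.06. Exons of *Fam83g* on the opposite strand share 393 bases with those of *Slc5a10*. *Fam83g* was at 29.8 to 58.4 CPM in *db/m*, 43.5 to 144 in *db/db* and 77.8 to 109 in treated mice, and its part in the counts of *Slc5a10* was not tested.

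*Slc5a9* encodes SGLT4, which carries mannose, fructose and 1,5-anhydroglucitol as well as glucose, and lies at chr4:111875375-111902918 (minus strand). It was at 19.2, 29.7 and 21.8 CPM in *db/m*, 39.8, 23.0 and 55.3 CPM in *db/db* and 44.3, 52.1 and 54.9 CPM in treated mice. All treated mice were above all *db/m* mice, and *db/db* replicate 2 lay within the *db/m* range. The log2 fold change in the combined comparison was 1.10 (standard error 0.29, 95% interval 0.47 to 1.73), with an unadjusted p of 0.00261 and an adjusted p of 0.121 from edgeR's quasi-likelihood test. It was called with DESeq2 (adjusted p = 0.0215), with voom and quality weights (0.00482), without a filter on low counts (0.0840), in a fit of only these 6 mice (0.0224), without *db/db* replicate 2 (0.0704) and without *db/db* replicate 3 (0.0280), and the adjusted p ran from 0.00482 to 0.43 over the 20 alternatives. In the same order, these settings called 507, 1619, 275, 630, 142 and 664 of all tested genes, against 164 in the main test. As for *Slc5a10*, the *db/db* mice left out are not in this comparison. Without any 1 of the 6 mice compared, *Slc5a9* was not called. In the diabetes comparison the log2 fold change was 0.75 (95% interval 0.11 to 1.38, adjusted p = 0.282), and without *db/db* replicate 3 it was 0.38. For the treatment comparison it was 0.35 (95% interval -0.27 to 0.97). With the length trend removed, the values of *Slc5a9* were 0.64, 0.33 and 0.97 in the diabetes, treatment and combined comparisons.

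**Figure D3:**
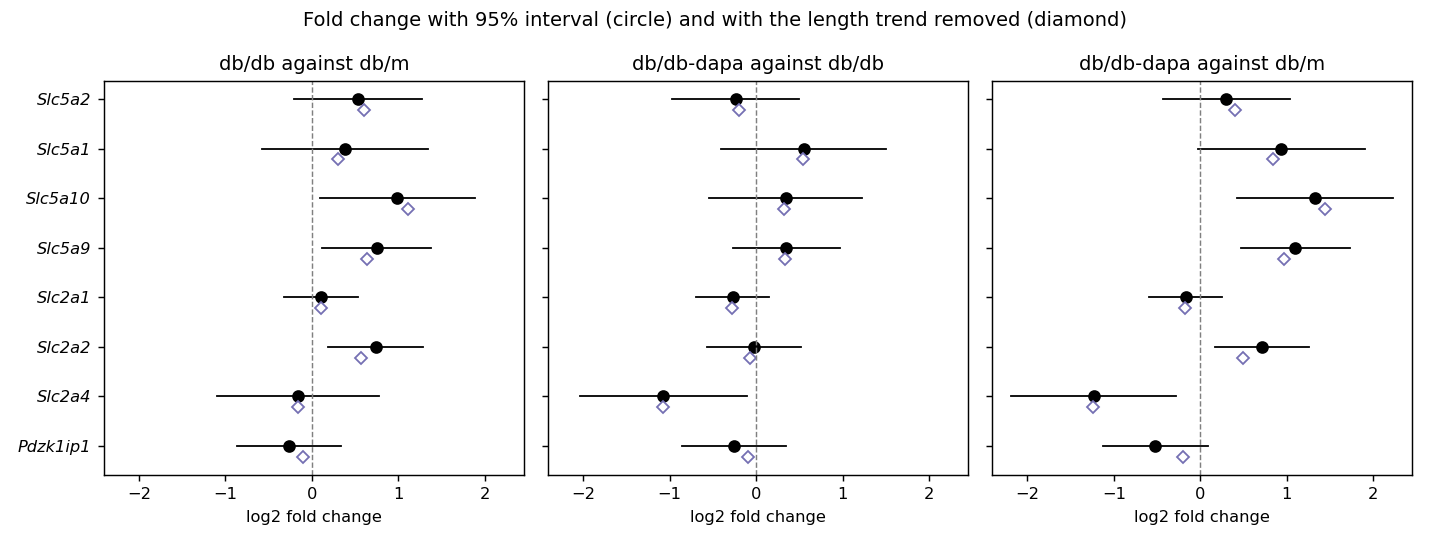
Log2 fold change of each gene in the 3 comparisons, with edgeR's estimate as a filled circle, its 95% interval as a line and the estimate with the length trend removed as an open diamond. The intervals of *Slc5a10*, *Slc5a9*, *Slc2a2* and *Slc2a4* leave out 0 in the combined comparison, although 0 of the 8 genes were called after adjustment.

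*Slc2a2* encodes GLUT2, the basolateral glucose carrier of the early segments, and lies at chr3:28697903-28731359 (plus strand). Its level was 197, 267 and 139 CPM in *db/m*, 328, 274 and 403 CPM in *db/db* and 267, 349 and 372 CPM in treated mice. All *db/db* mice were above all *db/m* mice, and the lowest *db/db*-dapa mouse was level with the highest *db/m* mouse. The log2 fold change was 0.74 (standard error 0.25, 95% interval 0.19 to 1.29) in the diabetes comparison, with an unadjusted p of 0.0130 and an adjusted p of 0.23 from edgeR's quasi-likelihood test. It was 0.71 (95% interval 0.17 to 1.26, adjusted p = 0.208) in the combined comparison. Treated against untreated mice gave a value of -0.02 (95% interval -0.57 to 0.52), and it turned to 0.15 without *db/db* replicate 3 and to 0.12 without *db/db*-dapa replicate 1. With 5569 bases *Slc2a2* has the longest transcript of the 8 genes, and with the length trend removed its log2 fold changes against *db/m* mice were 0.57 in *db/db* and 0.49 in treated mice.

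*Slc2a1* encodes GLUT1, a carrier found in most cells and, in the proximal tubule, on the basolateral side of the late segment. The gene lies at chr4:119108711-119137983 (plus strand). It was at 43.9, 31.6 and 34.6 CPM in *db/m*, 46.6, 40.8 and 32.0 CPM in *db/db* and 30.0, 34.0 and 34.3 CPM in treated mice. The groups overlapped, and no mouse stood far from the others. Its intervals were the narrowest among the 8 genes: the log2 fold change was 0.11 (95% interval -0.32 to 0.53) in the diabetes comparison, -0.27 (95% interval -0.69 to 0.15) in the treatment comparison and -0.17 (95% interval -0.59 to 0.25) in the combined comparison. The first of these turned to -0.018 without *db/db* replicate 1. Exons of *Slc2a1* share 105 bases with the antisense gene *Gm12868*, which was not analysed here.

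*Slc2a4* encodes GLUT4, the insulin-responsive carrier of muscle and fat, and lies at chr11:69942539-69948188 (minus strand). It was at 11.3, 5.23 and 18.2 CPM in *db/m*, 14.95, 9.80 and 6.82 CPM in *db/db* and 5.96, 4.07 and 4.64 CPM in treated mice. These levels rest on 30 to 82 counts per mouse. All treated mice were below all *db/db* mice, whereas *db/m* replicate 2 lay within the *db/db*-dapa range. The log2 fold change in the treatment comparison was -1.07 (standard error 0.44, 95% interval -2.03 to -0.11), with an unadjusted p of 0.0322 and an adjusted p of 0.854 from edgeR's quasi-likelihood test. Against *db/m* mice it was -1.23 (95% interval -2.19 to -0.28, adjusted p = 0.208). In that comparison it was called with DESeq2 (adjusted p = 0.0970), with voom and quality weights (0.0393) and without *db/db* replicate 3 (0.0991), and the adjusted p ran from 0.0393 to 0.545 over the alternatives. In the same order, these settings called 507, 1619 and 664 of all tested genes, against 164 in the main test. The *db/db* mouse left out is not in this comparison, and *Slc2a4* was not called when any *db/m* or treated mouse was left out. In the diabetes comparison the log2 fold change of *Slc2a4* was -0.16 (95% interval -1.10 to 0.78), and it turned to 0.30 without *db/m* replicate 3 and to 0.08 without *db/db* replicate 3. Of the fat cell markers, *Adipoq* was at 0 counts in all 9 mice, *Plin1* at 1 count in 1 mouse and *Cidec* at 2 counts in 1 mouse, and with *Fabp4* the 4 markers summed to 1.02 to 22.8 CPM, highest in *db/db* replicate 2. The principal cell markers *Aqp2*, *Aqp3*, *Hsd11b2* and *Scnn1g* were summed as well. Their sum was 216 to 698 CPM in *db/m*, 231 to 451 in *db/db* and 133 to 242 in treated mice, highest like *Slc2a4* in *db/m* replicate 3. The summed markers of the thick ascending limb (1626 CPM), the distal convoluted tubule (690 CPM) and intercalated cells (143 CPM) were also highest in that mouse. The part of all these markers in the result was not tested.

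Ratios of the counts of 2 genes within a library do not depend on the scaling between libraries. Their group means were tested by exact permutation (two-sided), for which 0.1 is the smallest p that 3 against 3 mice allow, and the p-values were adjusted over 9 comparisons. The count of *Slc5a1* was 10.5%, 7.17% and 6.55% of that of *Slc5a2* in *db/m*, 1.36%, 7.05% and 22.4% in *db/db* and 10.1%, 10.5% and 18.0% in treated mice. *db/db* replicates 1 and 3 held the lowest and the highest ratio, and the groups overlapped. The mean log2 ratio in treated mice was 1.05 above that in *db/db* mice (exact permutation test, p = 0.5) and 0.65 above that in *db/m* mice (exact permutation test, p = 0.2). Without *db/db* replicate 1 the first of these values was -0.019, and without replicate 3 it was 2.00. The difference was -0.40 in the diabetes comparison (exact permutation test, p = 0.8). It was 0.67 without *db/db* replicate 1.

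The count of *Pdzk1ip1* was 124%, 92.8% and 110% of that of *Slc5a2* in *db/m* mice. It was 48.9%, 82.7% and 67.9% in *db/db* and 67.7%, 52.2% and 64.7% in treated mice. All 6 mice of the diabetic groups were below all *db/m* mice. The mean log2 ratio differed from that in *db/m* mice by -0.74 in *db/db* mice and by -0.82 in treated mice (exact permutation tests, p = 0.1 and adjusted p = 0.3 for both). The *db/db* and treated mice overlapped, with a difference of -0.09 (exact permutation test, p = 0.8). The longest transcripts of *Pdzk1ip1* and *Slc5a2* have 1129 and 2277 bases, and the part of the libraries' balance of long and short transcripts in this ratio was not tested.

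The count of *Slc2a1* was 22.4%, 11.8% and 24.9% of that of *Slc2a2* in *db/m*, 14.2%, 14.9% and 7.94% in *db/db* and 11.2%, 9.74% and 9.21% in treated mice. All treated mice were below all *db/m* mice, with a difference of -0.90 in the mean log2 ratio (exact permutation test, p = 0.1, adjusted p = 0.3). The *db/db* mice overlapped both other groups, with a difference of -0.66 from *db/m* mice (exact permutation test, p = 0.3). treated mice differed from *db/db* mice by -0.25 (exact permutation test, p = 0.4). The longest transcripts of *Slc2a1* and *Slc2a2* have 3260 and 5569 bases, and the same limit holds for their ratio.

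**Figure D4:**
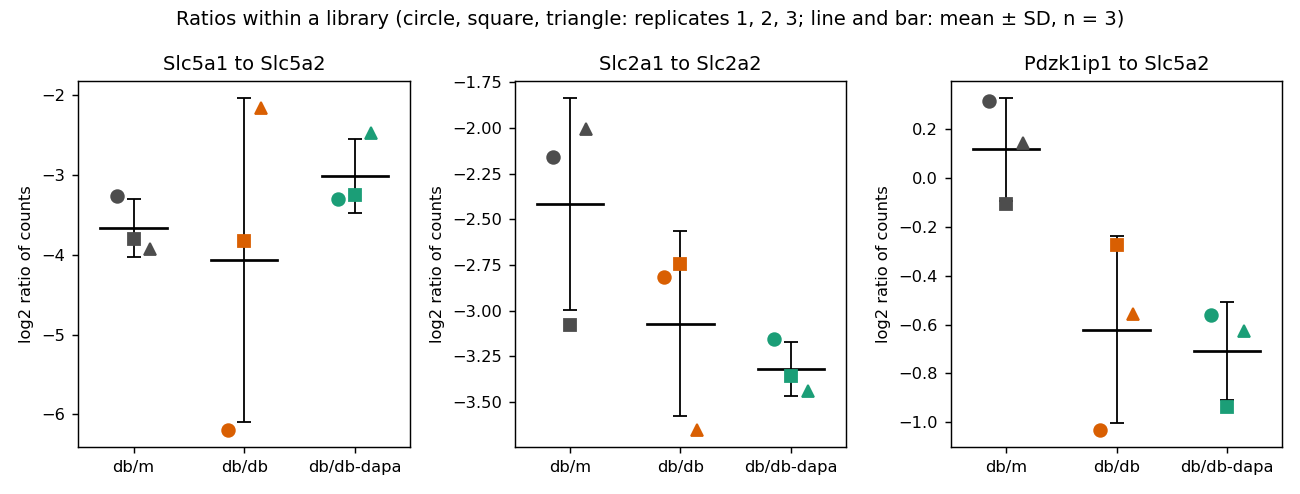
Log2 ratio of the counts of 2 genes within each library, by group, with 1 point per mouse and the mean ± SD of each group. The ratio of *Pdzk1ip1* to *Slc5a2* is lower in all 6 *db/db* and treated mice than in the 3 *db/m* mice, and the ratio of *Slc5a1* to *Slc5a2* spreads most within *db/db* mice.

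The genes also differed in how they ordered the mice. As a description over the 9 mice, which share groups and libraries, Pearson's r of log2(CPM + 1) was 0.93 between *Slc5a1* and *Slc5a10*, and 0.99 on the deviations from the group means. Both genes were lowest in *db/db* replicate 1 and highest in *db/db* replicate 3. *Slc5a2* had the opposite order within *db/db* mice and was highest in *db/db* replicate 1. The overlapping gene *BC017158* was also highest in that mouse, and its part in the counts of *Slc5a2* was not tested. On the deviations from the group means *Slc5a2* had r = -0.90 to *Slc5a1* and -0.89 to *Slc5a10*, against -0.62 and -0.40 over the 9 mice. These deviations were widest in *db/db* mice, where *Slc5a1* and *Slc5a10* spanned 5.90 and 4.94 times. In the other groups *Slc5a1* and *Slc5a10* spanned at most 1.17 times. Within treated mice, *Slc5a2*, *Slc5a1* and *Slc5a10* were all lower in replicate 2 than in replicate 1. *Slc5a2* and *Pdzk1ip1* had r = 0.84 on the same deviations and 0.48 over the 9 mice. Among 9135 genes with a mean of at least 10 CPM, those most like *Slc5a2* were *Slc34a3* (r = 0.93), a brush border phosphate carrier, *Tbx2* (0.91) and *Tmco6* (0.90). Those most like *Slc5a1* were *Hsd3b4* (0.99), *Cyp4a32* (0.97) and *Gm10681* (0.96). *Srsf9*, *Stk11* (0.99 each) and *Cxx1c* (0.98) were most like *Pdzk1ip1*. For *Slc2a1* the likeness was lower, at 0.89 for *Terf2ip* and 0.87 for *Gm5148* and *Hoxa5*. Over the 9 mice, r to the long-minus-short transcript difference of each library was -0.95 for *Pdzk1ip1* and -0.77 for *Slc2a4*. It was 0.90 for *Slc2a2*, 0.89 for *Slc5a9*, 0.78 for *Slc5a10* and 0.66 for *Slc5a1*. For *Slc2a1* and *Slc5a2* it was -0.43 and -0.23. The part of this difference between libraries in the likeness of genes was not tested. With the length trend removed, the log2 fold changes of *Slc5a10* were 1.11, 0.33 and 1.44 in the diabetes, treatment and combined comparisons. In the same order they were 0.30, 0.54 and 0.84 for *Slc5a1* and 0.60, -0.195 and 0.40 for *Slc5a2*. Those of *Slc2a1* were 0.11, -0.28 and -0.17, and those of *Slc2a4* were -0.16, -1.08 and -1.24.

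Other members of the 2 families were read from the same fit. Of 8 tested among 9 further SLC5 genes, 0 were called in any comparison, and 8 tested among 9 further SLC2 genes also gave 0 calls. *Slc5a8*, which carries lactate and other monocarboxylates, was added after its values were seen. It was at 38.4, 199 and 583 CPM in *db/db* mice, the order of *Slc5a1* and *Slc5a10*, and at 228 to 269 CPM in *db/m* and 306 to 591 CPM in treated mice. *Slc5a12*, which also carries lactate, was at 1070, 595 and 577 CPM in *db/db* mice, with the highest value in replicate 1 like *Slc5a2*. Its log2 fold change in the diabetes comparison was 0.79 (adjusted p = 0.249). *Slc5a11*, a transporter of myo-inositol, was at 71.7 to 79.9 CPM in *db/m*, 87.7 to 131 in *db/db* and 115 to 136 in treated mice. Neither diabetic group overlapped the *db/m* mice, and the log2 fold change was 0.48 in *db/db* (adjusted p = 0.275) and 0.74 in treated mice (adjusted p = 0.112). *Slc2a5*, which encodes the fructose carrier GLUT5, had the same pattern, with 85.3 to 99.5 CPM in *db/m*, 109 to 209 in *db/db* and 138 to 174 in treated mice. Its log2 fold changes against *db/m* mice were 0.60 and 0.71 (adjusted p = 0.313 and 0.207). Between treated and untreated mice, *Slc2a8* and *Slc2a9* had log2 fold changes of -0.30 and -0.33 (adjusted p = 0.854 for both). *Slc5a5* and *Slc2a6*, which the rule also named, rest on at most 4 and 9 counts in a mouse.

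**Figure D5:**
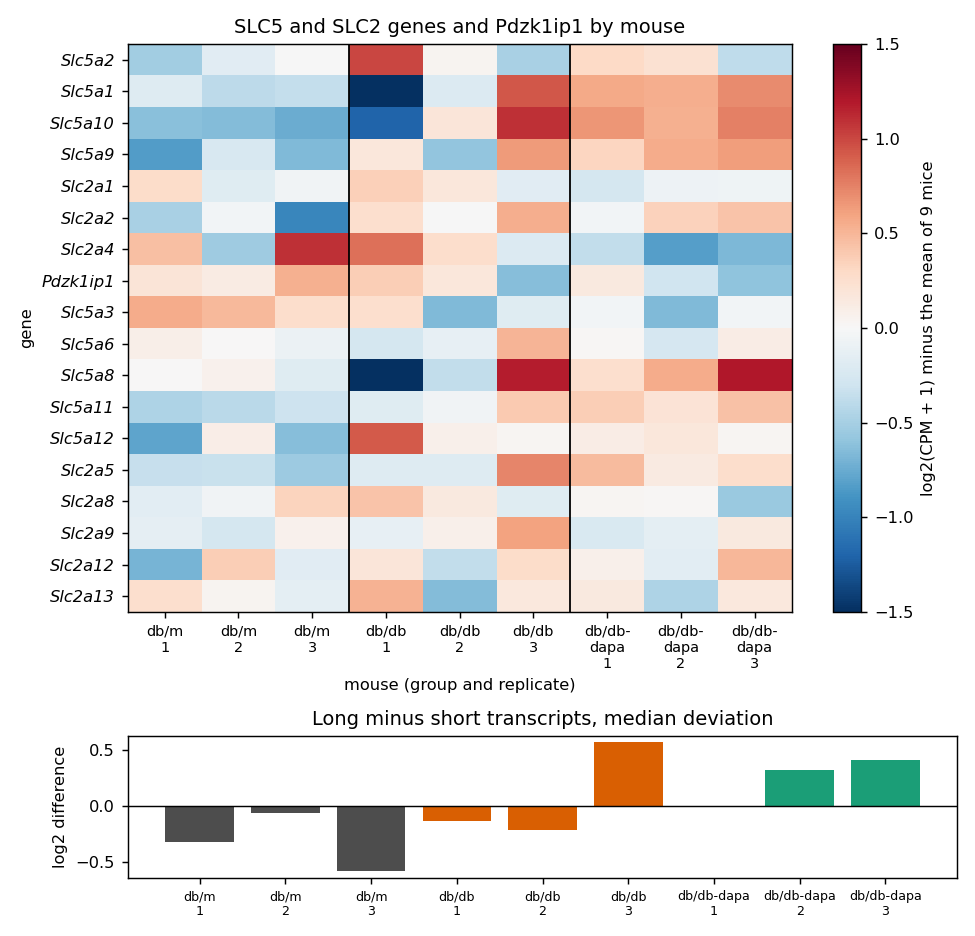
Deviation of log2(CPM + 1) from the mean of the 9 mice for the 8 genes and the other SLC5 and SLC2 genes with a mean of at least 1 CPM (top; red is higher, blue lower), and the long-minus-short transcript difference of each library in log2 units (bottom). *Slc5a1*, *Slc5a10* and *Slc5a8* are lowest in *db/db* replicate 1 and high in *db/db* replicate 3, where long transcripts stand at 0.57.

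Among 12 regulators and scaffold proteins, 1 was called higher in both diabetic groups than in *db/m* mice, and 0 were called between treated and untreated mice. This gene was *Sgk1*, a kinase induced by glucocorticoids and mineralocorticoids that raises the activity of many transporters, SGLT1 among them. It was at 161, 94.2 and 92.6 CPM in *db/m*, 299, 329 and 307 in *db/db* and 274, 179 and 267 in treated mice. No mouse of either diabetic group was as low as the *db/m* mice, and all treated mice were below all *db/db* mice. *Sgk1* rose by a log2 fold change of 1.42 in the diabetes comparison (adjusted p = 0.0239) and of 1.05 in the combined comparison (adjusted p = 0.0987). The second call was lost in 8 of 20 alternatives, in which the value ran from 0.72 to 1.23. *Txnip*, a glucose-induced inhibitor of GLUT1 and of thioredoxin, was at 121 to 170 CPM in *db/m*, 238 to 319 in *db/db* and 166 to 209 in treated mice. The *db/db* mice did not overlap either other group. Its log2 fold change was 0.96 in the diabetes comparison (adjusted p = 0.046), just short of the size required for a call, and -0.66 in the treatment comparison (unadjusted p = 0.00542, adjusted p = 0.854). In the diabetes comparison *Txnip* was called at 1.07 with a common total per mouse, at 1.002 with the length trend removed and at 1.08 without *db/db* replicate 1 (adjusted p = 0.021, 0.0284 and 0.0432), and the adjusted p ran from 0.000225 to 0.164 over its 20 alternatives.

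The sodium gradient that drives the SGLT proteins is kept by the sodium pump. Of 4 genes of the pump and of sodium-proton exchange, 0 were called in any comparison. *Slc9a3*, which encodes the brush border exchanger NHE3, was at 18.0, 30.9 and 12.9 CPM in *db/m*, 25.5, 44.0 and 156 in *db/db* and 48.0, 78.5 and 108 in treated mice. Its log2 fold change in the diabetes comparison was 1.88 (adjusted p = 0.191), and without *db/db* replicate 3 it was 0.76. *Fxyd2*, the gamma subunit of the pump, had log2 fold changes of -0.42 in *db/db* against *db/m* and -0.22 in the treatment comparison (adjusted p = 0.571 and 0.894).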

How the data were processed

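Sorted tubular cells of 9 mice, 3 per group, were compared. Per the labels, stranded poly(A) libraries were sequenced in single-end mode and processed with TopHat2 2.0.13, Bowtie2 2.2.3, SAMtools 0.1.19 and Cufflinks 2.2.1 on mm10, the same assembly as GRCm38. The table deposited by the authors is named as FPKM, but its values have the form of estimated counts and were treated as such: 85.9% of the values above 0 are whole numbers (to within 1e-06) and the column sums differ. How the authors made these values is not given in the sources used here.

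The estimated counts were rounded to whole numbers and scaled by the TMM method. Genes that reached 0.3 CPM in 2 or more of the 9 mice entered edgeR's quasi-likelihood test (version 4.0.16, R 4.3.3), with all mice in 1 fit without pairing and p-values adjusted by the Benjamini-Hochberg method. The 95% intervals and standard errors derive from the same test. DESeq2 1.42.0 and limma 3.58.1 (with voom) were used for alternatives, as were other scalings, filters, pseudocounts and fits without each mouse. The removal of the length trend was chosen after seeing the data. Scripts were tested on simulated data. Coordinates and transcript lengths come from GENCODE M21 and promoters from RefSeq.

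The 8 genes and the lists were chosen with earlier results of these data known. Beside the 8 genes, the text names called genes of the lists, the 2 genes of each list with the lowest unadjusted p in *db/db* against *db/m* and in the treatment comparison, and the 3 genes most like *Slc5a2*, *Slc5a1*, *Slc2a1* and *Pdzk1ip1*. Of the list genes so chosen, 2 are not reported here.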

Additional observations from a re-analysis of the deposited data

How the results depend on the processing

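The number of the 8 genes called was 0 in the diabetes comparison and ran from 0 to 1 when 1 mouse was left out, where the 1 was *Slc5a10* without *db/db* replicate 1. In the treatment comparison it ran from 0 to 1 as well (*Slc5a1* without *db/db* replicate 3), and it was 1 (*Slc5a1*) with voom and quality weights. In the combined comparison it ran from 0 to 3, the 3 without *db/db* replicate 3, and it was 3 with DESeq2 and with voom and quality weights, 2 in a fit of only the groups compared and 1 without a filter. The *db/db* mice are not in the combined comparison, and the number was 0 whenever a *db/m* or treated mouse was left out. With the replicate number as a block (replicate block) 0 of the 8 genes were called in any comparison, and *Slc5a10* had a log2 fold change of 1.31 (adjusted p = 0.183) in the combined comparison. Differences of mean log2 ratios, such as -0.74 for *Pdzk1ip1* to *Slc5a2* in the diabetes comparison, cannot change under this block. The numbers were not taken to pair the mice. Same-numbered mice had correlations of -0.32 to 0.56, with 0.40, -0.16 and 0.56 between *db/db* and treated mice for replicates 1 to 3. Mice with different numbers were not compared, so these values cannot decide whether the numbers pair the mice. Log2 fold changes that turned were those of *Slc5a1* (-0.31 with voom and quality weights, -0.41 to 0.80 with 1 mouse left out), *Slc2a1* (-0.018 to 0.26) and *Slc2a4* (0.15 with voom and quality weights, -0.52 to 0.30) in the diabetes comparison. In the treatment comparison they were those of *Slc5a2* (-0.50 to 0.28), *Slc5a10* (-0.062 to 1.01) and *Slc2a2* (0.15 with voom and quality weights, -0.15 to 0.15). The difference in log2 ratio of *Slc5a1* to *Slc5a2* ran from -1.35 to 0.67 in *db/db* against *db/m* and from -0.019 to 2.00 in the treatment comparison, and that of *Pdzk1ip1* to *Slc5a2* from -0.29 to 0.086 in the latter. The cause of these changes was not tested. Over all tested genes, 194, 0 and 164 were called in the diabetes, treatment and combined comparisons, against 363, 13 and 507 with DESeq2 and 262, 449 and 1619 with voom and quality weights. A fit of only the groups compared called 115, 0 and 630, and the lack of a filter gave 275 in the combined comparison. With 1 mouse left out the counts ran from 85 to 230, from 0 to 272 (the highest without *db/db* replicate 3) and from 14 to 664.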
